A study of Mus musculus with 5 samples.

Results

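The claudins are the membrane-spanning proteins that form the strands of tight junctions, and 10 of their genes were followed here in colon tumors of mice with and without epithelial Siglec-XII. The genes were chosen by name as claudins of the intestinal epithelium, with earlier results of these data known. They were Cldn1, Cldn2, Cldn3, Cldn4, Cldn7, Cldn8, Cldn12, Cldn15, Cldn23 and Cldn25. Of the 10, 9 were found by their symbol among 52143 genes, and Cldn25 matched no symbol used here and was not analysed here. All 9 passed the filter on low values and are called the members. Tumors came from female mice that were 8 weeks old when tamoxifen began. Control mice (Villin1-Cre-ERT littermates) carried a Cre recombinase that tamoxifen activates, under the villin promoter, which is active in intestinal epithelium. SIGLEC12 mice carried the same recombinase plus 1 copy of human SIGLEC12 at the Rosa26 locus behind a stop cassette that Cre removes. Both groups received tamoxifen (10 mg/ml) for 5 days, azoxymethane (AOM, a colon carcinogen) at 10 mg/kg, and dextran sodium sulfate (DSS, which injures the colon epithelium) at 2.0% in 4 cycles, each of 5 days with 14 days of recovery. Tumors were harvested on day 87. RNA-Seq of 2 Control mice (replicates 1 and 4) and 3 SIGLEC12 mice (replicates 2, 3 and 4) was compared.

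Claudins of neighbouring cells bind each other across the gap and set which ions and small solutes pass between the cells. Cldn2 and Cldn15 form pores that let small cations and water through. Cldn1, Cldn3, Cldn4 and Cldn8 mostly tighten the junction. Cldn7 lies largely along the basolateral membrane of colon epithelium, where it binds EpCAM, the epithelial cell adhesion molecule. Cldn12 and Cldn23 are less well understood. In colitis and colon tumors the balance of pore-forming and sealing claudins is a common readout of barrier function.

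Levels are log2(TPM + 1), where TPM is the abundance of a gene per length, relative to all RNA in the sample, so the genes can be compared with each other. Read depth is unknown, and the number of samples limits the precision. Protein-coding genes took 5.70% and 6.73% of the TPM total in Control and from 8.75% to 9.72% in SIGLEC12, and the median log2 fold change of all 10338 genes tested was 0.38. Values rescaled to the same protein-coding total (the protein-coding scale) are therefore given beside the deposited ones. Control replicate 1 stood apart. It had 7947 genes at a TPM of at least 1, against 9532 to 10090 in the other 4 samples. It was the lowest of the 5 samples in all 15 genes of a list of columnar epithelial markers (mean 4.14, against 5.47 in Control replicate 4 and 5.71 to 6.14 in SIGLEC12). It was also the highest in 15 of 21 markers of squamous epithelium, which lines the anal canal. The part of these differences in the results on claudins was not tested, and in bulk tumor RNA fewer epithelial cells and less RNA per epithelial cell cannot be told apart. The fold changes of the members are therefore also given without Control replicate 1. Of the other markers, those of fibroblasts averaged 1.08 and 1.05 in Control and 2.37, 1.30 and 1.68 in SIGLEC12, and those of B and plasma cells 0.09 and 0.18 in Control and 0.64, 0.29 and 0.30 in SIGLEC12 (exact permutation p = 0.2 for both lists). The means of smooth muscle, myeloid and T cell markers overlapped between the groups.

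The stretches before the transcription start are shown for 5 members, the most abundant (Cldn7, Cldn3 and Cldn4), the main pore-forming claudin (Cldn2) and the one whose values departed from the rest (Cldn1). They are the 250 bases before the start in RefSeq on GRCm38.p6, 5′ to 3′ on the strand of the gene, at chr11:69965171-69965420 (plus strand, the second of 2 starts of Cldn7), chr5:134985964-134986213 (plus, Cldn3), chr5:134946935-134947184 (minus, Cldn4), chrX:139800558-139800807 (plus, Cldn2) and chr16:26371840-26372089 (minus, Cldn1). Capitals mark 3 motifs, searched on both strands: the E-box that Snail and ZEB repressors bind, read CAGGTG or, on the other strand, CACCTG, the TATA box, read TATAAA or else TTTATA, and the AP-1 site, read TGACTCA or else TGAGTCA.
Cldn7: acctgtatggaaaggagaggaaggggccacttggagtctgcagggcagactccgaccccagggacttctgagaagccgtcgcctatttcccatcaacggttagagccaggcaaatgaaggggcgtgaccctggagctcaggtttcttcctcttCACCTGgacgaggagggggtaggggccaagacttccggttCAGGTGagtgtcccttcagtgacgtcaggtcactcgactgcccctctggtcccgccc
Cldn3: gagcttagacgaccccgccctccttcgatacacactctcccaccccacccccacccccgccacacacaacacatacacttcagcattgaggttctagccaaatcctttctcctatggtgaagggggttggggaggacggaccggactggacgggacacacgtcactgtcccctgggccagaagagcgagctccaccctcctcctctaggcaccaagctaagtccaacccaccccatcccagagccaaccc
Cldn4: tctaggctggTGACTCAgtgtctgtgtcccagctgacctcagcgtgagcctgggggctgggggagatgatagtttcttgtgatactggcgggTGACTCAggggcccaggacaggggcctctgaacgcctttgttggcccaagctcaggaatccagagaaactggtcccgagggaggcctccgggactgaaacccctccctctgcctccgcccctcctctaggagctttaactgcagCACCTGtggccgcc
Cldn2: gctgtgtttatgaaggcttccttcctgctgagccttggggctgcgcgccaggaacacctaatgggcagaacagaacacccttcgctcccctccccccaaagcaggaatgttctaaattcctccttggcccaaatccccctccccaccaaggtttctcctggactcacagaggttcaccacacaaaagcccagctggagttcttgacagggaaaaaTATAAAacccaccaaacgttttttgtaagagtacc
Cldn1: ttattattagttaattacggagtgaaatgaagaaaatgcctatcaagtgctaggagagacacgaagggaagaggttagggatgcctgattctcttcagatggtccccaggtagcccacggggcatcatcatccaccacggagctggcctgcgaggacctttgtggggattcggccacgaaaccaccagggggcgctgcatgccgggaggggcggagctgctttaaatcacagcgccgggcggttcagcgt
The E-box stood 97 and 57 bases before this start of Cldn7 and 14 bases before that of Cldn4. Cldn4 also held the AP-1 site at 240 and 158 bases, and Cldn2 the TATA box at 35 bases. The windows shown of Cldn3 and Cldn1 held none of the 3. Neither did the window of the first start of Cldn7 (chr11:69964529-69964778), which is not shown. RefSeq gave 10 windows for 7 members. Of these 10 windows the E-box was in 2, the TATA box in 1 and the AP-1 site in 2, those of Cldn4 and Cldn15. Of 32851 windows of this length, 17.2% held the E-box, 12.4% the TATA box and 4.46% the AP-1 site. The matches describe letters in these windows and do not show binding. Cldn3 and Cldn4 are neighbours on chromosome 5, with 39.28 kb between the end of Cldn4 and the start of Cldn3.

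Cldn7 was the most abundant claudin in all 5 tumors, followed by Cldn3 and Cldn4. The mean level over the 5 samples ran in the order Cldn7 (5.66), Cldn3 (5.08), Cldn4 (4.26), Cldn2 (2.98), Cldn8 (2.47), Cldn12 (2.30), Cldn23 (1.79), Cldn1 (1.27) and Cldn15 (1.20). Cldn7 exceeded Cldn3 in 5 of 5 samples, by 0.58 ± 0.14 (SD of the difference, n = 5). Neighbours in the order differed the same way in 5 of 5 samples except at 3 places. Cldn8 exceeded Cldn12 in 3 of 5 samples (0.17 ± 0.42), Cldn23 exceeded Cldn1 in 4 of 5 (0.52 ± 0.71) and Cldn1 exceeded Cldn15 in 3 of 5 (0.07 ± 0.38), so these pairs did not differ beyond their spread. In Control replicate 1, Cldn1 stood above Cldn23. Cldn8 stood below Cldn12 in Control replicate 1 and in SIGLEC12 replicate 4.

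**Figure D1:**
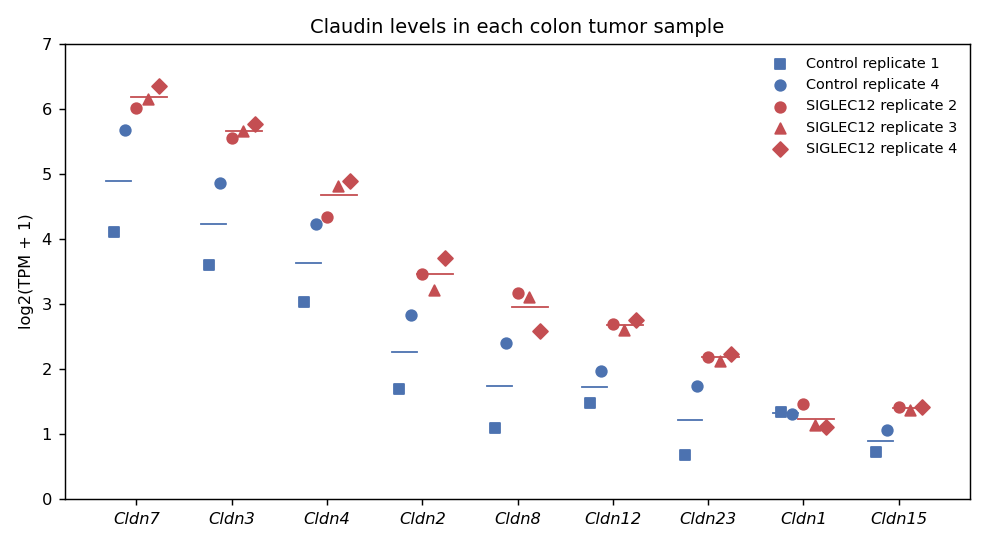
Level of each member, as log2(TPM + 1) on the vertical axis, with 1 point per tumor and horizontal bars for the group means (Control n = 2, SIGLEC12 n = 3). Control replicate 1 is the lowest point for 8 of the 9 genes, and for Cldn1 the groups overlap.

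The same 3 claudins made up most of the claudin pool in each tumor, although its size differed. The summed TPM of the members was 42.4 in Control replicate 1, 114 in Control replicate 4, and 160, 174 and 192 in the SIGLEC12 tumors. The groups did not overlap (78.1 ± 50.5, SD, n = 2, against 175 ± 16.4, SD, n = 3; exact permutation p = 0.1, the smallest that the 10 splits of 5 samples allow). The members took 0.0744% and 0.169% of protein-coding TPM in Control and 0.181%, 0.199% and 0.198% in SIGLEC12. This was a difference of 0.0707 percentage points (exact permutation p = 0.1), and 0.0234 points without Control replicate 1. Cldn7, Cldn3 and Cldn4 together made up 81.3% and 84.0% of the pool in Control and 80.9%, 84.4% and 84.8% in SIGLEC12, which overlapped.

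**Figure D2:**
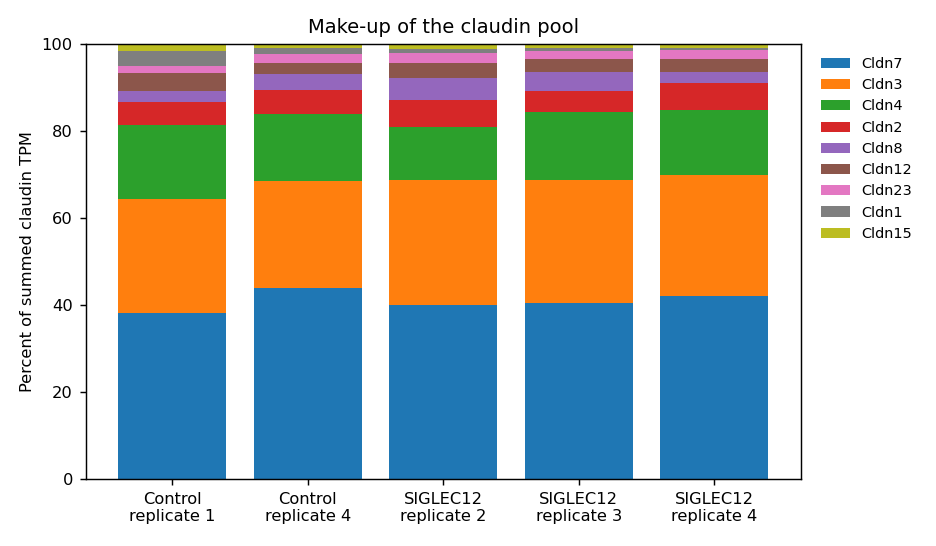
Make-up of the claudin pool in each tumor, as the percent of the summed TPM of the members on the vertical axis, 1 stacked bar per sample. Cldn7, Cldn3 and Cldn4 fill from 80.9% to 84.8% of every bar, and the share of Cldn1 is largest in Control replicate 1, at 3.60%.

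Of the 9 members, 8 were higher on average in SIGLEC12 tumors, as were 87.2% of all genes tested, and 0 passed the threshold. With limma and Benjamini-Hochberg adjustment over all genes, 0 members were at least 2-fold different at an adjusted p under 0.05, as were 0 of the 10338 genes tested (0%), and the smallest adjusted p of any gene was 0.0974. At an unadjusted limma p of at most 0.05, 8 of 9 members were higher, against 33.4% of all genes, and 0 were lower, against 0.909%. In the same 8 members every SIGLEC12 sample stood above both Control samples, which was the case in 54.1% of all genes, and the exact permutation p of each was 0.1. The median log2 fold change of the members was 1.06, beside 0.38 for all genes. On the log2(TPM + 1) scale, at least 2-fold with an unadjusted p of at most 0.05 were 5 of 9 (Cldn2, Cldn3, Cldn4, Cldn7 and Cldn8), against 3.97% of all genes. This count depends on the scale, as the ratio of the mean TPM was 2.31 in Cldn12 and 2.39 in Cldn23, which are not among them. The number at an unadjusted p of at most 0.05 was 4 without SIGLEC12 replicate 3 and 5 without SIGLEC12 replicate 4.

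The differences were smaller on other scales and without Control replicate 1. After rescaling to the protein-coding total, the median of the members was 0.63, beside 0.01 for all genes. Cldn3 and Cldn12 were then higher at an unadjusted p of at most 0.05 (2 of 9, against 4.45% of all genes), and Cldn1 was lower (1 of 9, against 6.31%). Cldn2, Cldn3, Cldn12, Cldn15 and Cldn23 stood higher without overlap (5 of 9, against 15.6%). After rescaling to the mean of the epithelial markers (the epithelial scale), the median was 0.24, beside -0.37 for all genes. Here 0 members were higher at an unadjusted p of at most 0.05 (0.638% of all genes), and Cldn1 was lower (1 of 9, against 13.3%). On this scale Cldn2, Cldn3 and Cldn7 stood higher without overlap (3 of 9, against 1.71%). For Cldn7 the gap was small, with Control replicate 4 at 5.66 and SIGLEC12 replicates 2 and 4 at 5.68. Without Control replicate 1 the median was 0.51, beside 0.26 for all genes, 2 members (Cldn3 and Cldn12) were at an unadjusted p of at most 0.05 (13.9% of all genes were higher at that p), and 0 were at least 2-fold higher (1.8% of all genes). Without Control replicate 4 the median was 1.66, beside 0.52, and 7 members (all but Cldn1 and Cldn15) passed the adjusted threshold, as did 10.2% of all genes. Both fits without a Control sample rest on a lone Control sample, which is assumed to vary like the SIGLEC12 samples.

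**Figure D3:**
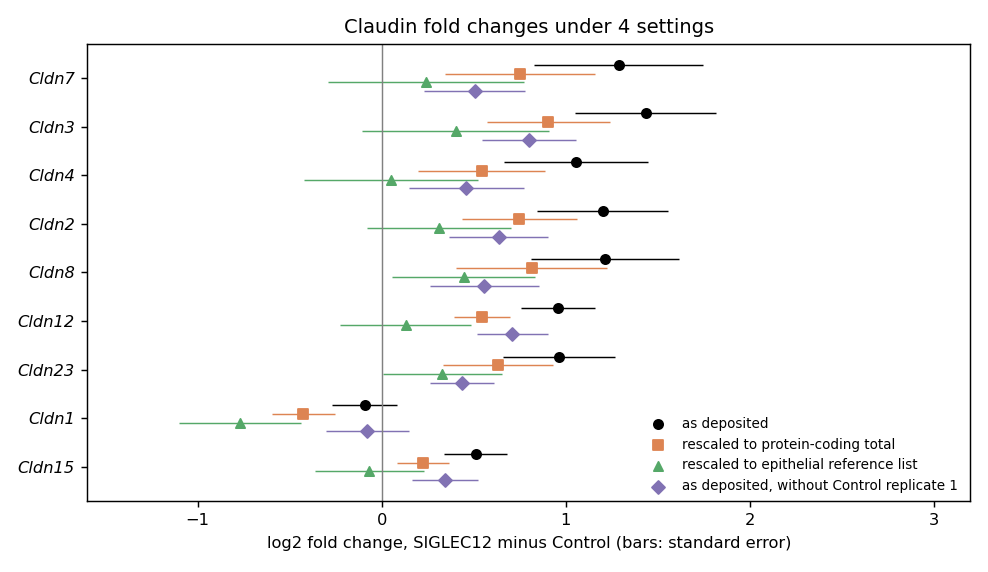
Log2 fold change (SIGLEC12 against Control) of each member with its limma standard error, in 4 settings: as deposited, rescaled to the protein-coding total, rescaled to the epithelial markers, and without Control replicate 1. For the 8 members other than Cldn1, values lie from 0.51 to 1.43 as deposited, from 0.22 to 0.91 after the first rescaling, from -0.07 to 0.44 after the second, and from 0.34 to 0.80 without that sample.

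The pore-forming claudins came first. Cldn2 (ENSMUSG00000047230, chromosome X, 139800828 to 139811386, plus strand), the cation and water pore that is induced in inflamed colon, was at 1.70 and 2.82 in Control and at 3.46, 3.21 and 3.71 in SIGLEC12. The groups did not overlap, and the Control samples lay farther apart than the SIGLEC12 samples. The means were 2.26 ± 0.80 (SD, n = 2) and 3.46 ± 0.25 (SD, n = 3), a log2 fold change of 1.20 ± 0.35 (SE) at a limma adjusted p of 0.0997. On the protein-coding scale it was 0.75, and 0.64 when Control replicate 1 was left out. Cldn15 (ENSMUSG00000001739, chromosome 5, 136966616 to 136975858, plus strand), the main cation pore of the small intestine, was at 0.72 and 1.06 in Control and at 1.42, 1.37 and 1.41 in SIGLEC12. Its level was near a TPM of 1, where the log2(TPM + 1) scale understates fold changes. Its log2 fold change was 0.51 ± 0.17 (SE) at a limma adjusted p of 0.108, and the groups did not overlap. It was 0.22 on the protein-coding scale, -0.07 on the epithelial scale and 0.34 when Control replicate 1 was left out.

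The share of pore-forming claudins in the pool did not separate the groups. Cldn2 and Cldn15 together took 6.82% and 6.29% of the member TPM in Control and 7.34%, 5.66% and 7.12% in SIGLEC12. The means of 6.55% ± 0.38 (SD, n = 2) and 6.70% ± 0.91 (SD, n = 3) differed by 0.15 percentage points, less than the spread between samples (exact permutation p = 0.9). The sign of this difference changed when Control replicate 4 (-0.12), SIGLEC12 replicate 2 (-0.16) or SIGLEC12 replicate 4 (-0.06) was left out, and it was 0.42 points without Control replicate 1. Of pore-forming and sealing claudins alone, Cldn2 and Cldn15 took 12.2% in both Control samples and 13.5%, 10.3% and 13.4% in SIGLEC12 (exact permutation p = 1). A share within the pool does not depend on the other RNA of the sample.

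Of the sealing claudins, Cldn3, Cldn4 and Cldn8 stood higher in SIGLEC12 and Cldn1 did not. Cldn3 (ENSMUSG00000070473, chromosome 5, 134986214 to 134987472, plus strand), a barrier-forming claudin found throughout the intestinal lining, was at 3.59 and 4.86 in Control and at 5.55, 5.65 and 5.77 in SIGLEC12. The SIGLEC12 tumors lay within a narrow range above both Control tumors. Its means of 4.22 ± 0.89 (SD, n = 2) and 5.66 ± 0.11 (SD, n = 3) gave the largest log2 fold change of the members as deposited, 1.43 ± 0.38 (SE) at a limma adjusted p of 0.0974. With 0.1 instead of 1 added to the TPM, it was 1.49, below the 1.57 of Cldn8. On the protein-coding scale it was 0.91, and it was 0.80 without Control replicate 1 and 2.07 without replicate 4. Cldn4 (ENSMUSG00000047501, chromosome 5, 134945119 to 134946934, minus strand), a sealing claudin that also serves as a receptor of Clostridium perfringens enterotoxin, was at 3.03 and 4.22 in Control and at 4.34, 4.82 and 4.90 in SIGLEC12. Its lowest SIGLEC12 sample, replicate 2, lay close to Control replicate 4. The log2 fold change was 1.06 ± 0.39 (SE) at a limma adjusted p of 0.123, 0.54 on the protein-coding scale, where the groups overlapped, and 0.46 when Control replicate 1 was left out. Cldn8 (ENSMUSG00000050520, chromosome 16, 88560828 to 88563183, minus strand), a sealing claudin of the distal colon, was at 1.09 and 2.40 in Control and at 3.18, 3.11 and 2.59 in SIGLEC12. Here SIGLEC12 replicate 4 stood below the other SIGLEC12 tumors. The log2 fold change was 1.22 ± 0.40 (SE) at a limma adjusted p of 0.108, 0.81 on the protein-coding scale, where the groups overlapped, and 0.56 when Control replicate 1 was left out.

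Cldn1 was the exception. Cldn1 (ENSMUSG00000022512, chromosome 16, 26356642 to 26371841, minus strand), a sealing claudin that is also essential to the barrier of the epidermis, was at 1.34 and 1.31 in Control and at 1.46, 1.13 and 1.10 in SIGLEC12. The groups overlapped, and the highest value was in SIGLEC12 replicate 2. The log2 fold change was -0.09 ± 0.18 (SE) at a limma adjusted p of 0.705, with a 95% interval from -0.52 to 0.33, and 9.60% of all genes tested had a lower one. The direction stayed negative on the protein-coding scale (-0.43) and on the epithelial scale (-0.77). On both, each SIGLEC12 sample lay below both Control samples, as in 16.8% and 30.7% of all genes (exact permutation p = 0.2 and 0.1). Leaving out Control replicate 1 gave -0.08. As a share of the pool, Cldn1 took 3.60% and 1.30% in Control and 1.10%, 0.687% and 0.597% in SIGLEC12 (exact permutation p = 0.1, adjusted over the 9 shares 0.45). Most of that difference lay between Control replicate 1 and the other 4 tumors.

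Markers of squamous epithelium, which expresses Cldn1, also differed between the tumors. The mean of the 21 markers was 6.10 in Control replicate 1, 4.55 in Control replicate 4, and 4.81, 4.23 and 4.51 in SIGLEC12 (difference -0.81, exact permutation p = 0.2). Their summed TPM was 4658 in Control replicate 1 and between 699.6 and 1475 in the others, and 0 of the 21 were at 0 in any sample. Of the 21, 3 had a positive log2 fold change (87.2% of all genes did), the largest 0.97, and the median was -0.75. At an unadjusted limma p of at most 0.05, 1 was lower (0.909% of all genes) and 0 were higher (33.4%). Krt14, a keratin of basal squamous cells, was at 10.16 and 6.10 in Control and at 7.64, 5.69 and 6.55 in SIGLEC12. Trp63, the regulator of squamous identity, was at 3.80 and 2.85 in Control and at 2.67, 2.29 and 2.20 in SIGLEC12. Cldn1 TPM as a percent of Trp63 TPM was lowest in Control replicate 1 (11.8%), next in Control replicate 4 (23.8%), and 32.6%, 30.8% and 32.1% in SIGLEC12. The part of squamous cells in the level of Cldn1 was not tested.

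**Figure D4:**
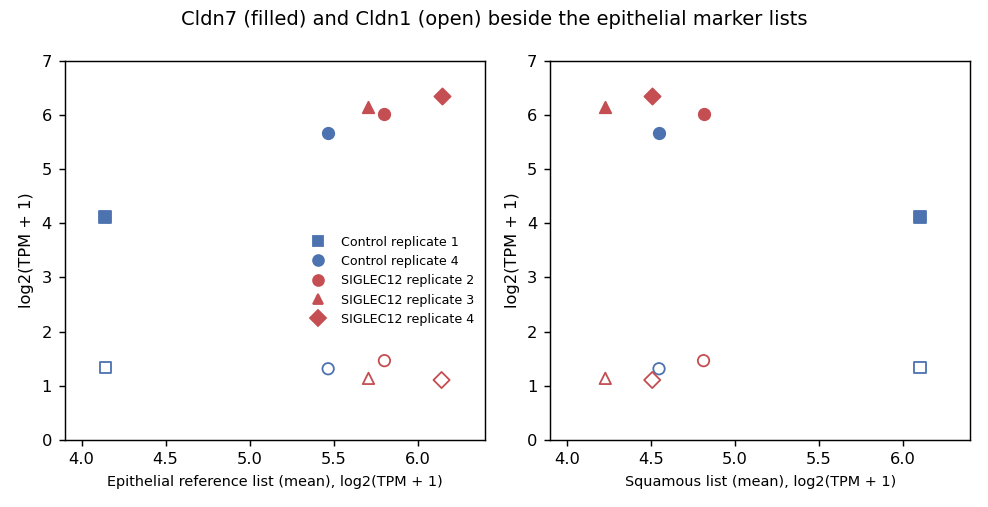
Level of Cldn7 (filled symbols) and Cldn1 (open symbols) in each tumor, as log2(TPM + 1), against the mean of the epithelial markers (left) and of the squamous markers (right). Control replicate 1 lies apart in both panels, at 4.14 for the epithelial and 6.10 for the squamous markers, with a low Cldn7 and a Cldn1 like that of the other tumors.

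Cldn7, Cldn12 and Cldn23 completed the set. Cldn7 (ENSMUSG00000018569, chromosome 11, 69964779 to 69967885, plus strand), the EpCAM-binding claudin, was at 4.11 and 5.67 in Control and at 6.02, 6.15 and 6.36 in SIGLEC12. Control replicate 4 was nearer to the SIGLEC12 tumors than to the other Control tumor. The means were 4.89 ± 1.11 (SD, n = 2) and 6.18 ± 0.17 (SD, n = 3), a log2 fold change of 1.29 ± 0.46 (SE) at a limma adjusted p of 0.116. Leaving out Control replicate 1 gave 0.51 and leaving out Control replicate 4 gave 2.07, and on the protein-coding scale the groups overlapped (0.75, exact permutation p = 0.2). Cldn12 (ENSMUSG00000046798, chromosome 5, 5489537 to 5514958, minus strand), an atypical claudin that lacks the usual PDZ-binding tail, was at 1.47 and 1.97 in Control and at 2.69, 2.60 and 2.76 in SIGLEC12. Its groups stood clear of each other, and the log2 fold change of 0.96 ± 0.20 (SE) at a limma adjusted p of 0.0974 had the smallest relative error of the members. On the protein-coding scale it was 0.54, without Control replicate 1 it was 0.71, and on the epithelial scale the groups overlapped (0.13, exact permutation p = 0.7). Cldn23 (ENSMUSG00000055976, chromosome 8, 35824712 to 35826559, minus strand), a claudin of differentiated colon surface cells, was at 0.68 and 1.74 in Control and at 2.18, 2.13 and 2.22 in SIGLEC12. The SIGLEC12 values were close together and above Control. The log2 fold change was 0.97 ± 0.30 (SE) at a limma adjusted p of 0.103, and 0.44 without Control replicate 1.

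The profile of Cldn3 across the 5 tumors lay closest to that of Epcam. Among 2722 protein-coding genes that averaged a TPM of at least 5, claudins aside, the genes whose profile lay nearest to that of Cldn3, the member that varied most, were Epcam, Tspan8 and Phgr1. After centring each gene on its own mean, the root mean square differences were 0.066, 0.091 and 0.094 on the log2 scale over the 5 samples. All 3 are in the list of epithelial markers. Epcam was at 4.92 and 6.31 in Control and at 6.85, 6.92 and 7.06 in SIGLEC12. Of the pairs of members, Cldn3 and Cldn7 had the most alike profiles (0.13).

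Levels were then set against Epcam, a choice made after the values were seen. As Epcam had the profile nearest to that of Cldn3, a near-constant ratio of Cldn3 to Epcam was partly given in advance. The same holds for Cldn7, the member whose profile was most like that of Cldn3. The TPM of Cldn7 was 55.5% and 63.8% of that of Epcam in Control and 55.9%, 58.3% and 61.1% in SIGLEC12, within the spread (exact permutation p = 0.8). Cldn3 was at 37.8% and 35.6% in Control and at 40.2%, 40.9% and 40.3% in SIGLEC12, a ratio of the means of 1.10 with no overlap (exact permutation p = 0.1). Cldn1 was at 5.22% and 1.89% in Control and at 1.53%, 0.992% and 0.867% in SIGLEC12 (exact permutation p = 0.1). Cldn4 was at 24.5% and 22.6% in Control and at 16.8%, 22.5% and 21.7% in SIGLEC12, lower in each SIGLEC12 sample but by little in replicate 3 (exact permutation p = 0.4). In the other 5 members the groups overlapped, and adjusted over the 9 ratios the smallest p was 0.45. As a share of the pool, Cldn3 took 26.1% and 24.6% in Control and 28.8%, 28.4% and 27.8% in SIGLEC12 (exact permutation p = 0.1), and apart from Cldn3 and Cldn1 the shares overlapped.

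Proteins that build tight junctions beside the claudins were compared next. Of 22 partners, 19 were tested and 0 passed the adjusted threshold. At an unadjusted p of at most 0.05, 8 of the 19 were higher (33.4% of all genes were) and 0 lower as deposited, with a median log2 fold change of 0.51. On the protein-coding scale 1 was higher (4.45% of all genes) and 2 lower (6.31%), with a median of 0.12. Without Control replicate 1, only Lsr was higher (13.9% of all genes) and 0 were lower, with a median of 0.25. Ocln, the strand protein occludin, was at 1.85 and 2.57 in Control and at 3.06, 3.01 and 3.06 in SIGLEC12 (difference 0.83 ± 0.25, limma adjusted p = 0.0997, and 0.38 after rescaling). Tjp1, the scaffold ZO-1 that anchors claudins to actin, was at 2.81 and 3.26 in Control and at 3.12, 2.77 and 3.21 in SIGLEC12, so its groups overlapped. The log2 fold change was -0.004 ± 0.24 (SE) at a limma adjusted p of 0.990. It was -0.49 on the protein-coding scale, where Tjp1 was 1 of the 2 lower partners, and -0.96 on the epithelial scale. On both, every SIGLEC12 sample lay below both Control samples, as in 16.8% and 30.7% of all genes. The largest differences of the list were in Lsr, the angulin of tricellular junctions (1.26 ± 0.27, limma adjusted p = 0.0974), Tjp3, the scaffold ZO-3 (0.90 ± 0.37, limma adjusted p = 0.145), and F11r, the adhesion molecule JAM-A (0.90 ± 0.27, limma adjusted p = 0.101). After rescaling these were 0.74, 0.41 and 0.38.

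Genes of the axis that keeps claudins from being degraded followed. EpCAM holds claudins at the membrane, the proteases matriptase (St14) and prostasin (Prss8) act upstream of EpCAM cleavage, and Spint1 and Spint2 inhibit matriptase. All 6 genes of the list were tested, and 4 were higher at an unadjusted p of at most 0.05, against 33.4% of all genes: Epcam (log2 fold change 1.33), St14 (0.79), Prss8 (0.52) and Spint2 (0.92). Spint1 differed by 0.54. On the protein-coding scale 0 of the 6 were higher at that p (4.45% of all genes), and without Control replicate 1 it was 1, St14 (13.9%).

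Of 15 transcription and splicing regulators linked to claudin expression, 9 were tested. At an unadjusted p of at most 0.05, 3 of the 9 were higher as deposited, a share near the 33.4% of all genes: Cdx1 (0.95), an intestinal homeobox factor, Klf5 (0.84), a factor of proliferating crypt cells, and Gata6 (0.77). On the protein-coding scale 0 were higher (4.45% of all genes) and 2 lower (6.31% of all genes), Grhl2 (-0.59), which activates epithelial junction genes, and Klf4 (-0.84), a factor of differentiated surface cells. Without Control replicate 1, 0 were higher and 0 lower at that p. Hnf4a, a master factor of enterocytes, differed by 0.79 as deposited and 0.26 after rescaling. The E-box repressors Snai1, Snai2, Zeb1 and Zeb2, with Twist1 and the homeobox factor Cdx2, did not pass the filter. Snai1 was at most 0.39, and Snai2 was highest in Control replicate 1 (1.39) and between 0.53 and 0.72 in the others.

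The other claudins were low or at 0. Of 35 claudin symbols, 26 were no members, and 0 of these passed the filter on low values. Of the 26, 12 were at 0 in all 5 samples, and the members made up from 99.0% to 99.2% of all claudin TPM. As the members were chosen with earlier results of these data known, this split may follow in part from the choice. The highest of the 26, named after its values were seen, was Cldn14, at 0.11 and 0.41 in Control and at 0.53, 0.56 and 0.64 in SIGLEC12. Cldn5, the claudin of endothelium, was at 0.03 and 0.04 in Control and at 0.49, 0.27 and 0.22 in SIGLEC12. Both Cldn5 and 9 of the 10 endothelial markers were below the filter and not tested. The mean of the 10 markers was 0.26 and 0.29 in Control and 0.85, 0.48 and 0.64 in SIGLEC12 (exact permutation p = 0.2). None of the 10 was at 0 in any sample. The 1 marker tested had a log2 fold change of 0.81. It was higher at an unadjusted limma p of at most 0.05 (33.4% of all genes) and without overlap (54.1%). On the protein-coding scale its log2 fold change was 0.61, and it was not at that p. Pecam1, which was not tested, was at 0.44 and 0.48 in Control and at 1.61, 0.71 and 0.91 in SIGLEC12. The part of endothelium in the level of Cldn5 was not tested. RefSeq gives Cldn25 as an older name of both Cldn25-ps, a pseudogene that was at 0 in all 5 samples, and Cldnd1, which was at 2.52 and 2.27 in Control and at 2.52, 2.62 and 2.93 in SIGLEC12. It differed by 0.30 ± 0.20 (SE) at a limma adjusted p of 0.297, and neither was counted as a member.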

How the data were processed

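RNA-Seq was analysed in 5 colon tumors, grouped by the treatment labels. The authors deposited 1 table of log2 values; 2 to the power of each value minus 1 summed to between 999999 and 1000001 per column, so the deposited values are log2(TPM + 1). The submitters' notes name kallisto 0.45.0 and GRCm38, and the study's methods name kallisto with a human reference and featureCounts for counting per gene. How the deposited TPM were derived from these, and whether technical libraries were averaged, is not given in the sources used here. TPM keeps no depth. The labels name a total RNA kit, the methods an mRNA kit. The series text speaks of 3 mice in each condition, of which 1 Control mouse was not analysed here. The SIGLEC12 transgene was not checked. Unmapped value columns numbered 0.

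Coordinates and biotypes came from GENCODE M21 on GRCm38 (98.5% of identifiers matched), promoters from RefSeq GRCm38.p6. Genes with a TPM of at least 1 in at least 2 samples entered limma 3.58.1 (R 4.3.3; lmFit, eBayes with trend, two-sided) on log2(TPM + 1), without covariates, with Benjamini-Hochberg adjustment over all genes. A call needed a change of at least 2-fold at an adjusted p under 0.05. The fit was tested on simulated data. Single values were compared by a two-sided exact permutation test over the 10 splits, and p-values measure the spread between these mice. The members and lists were chosen with earlier results of these data known. All members were named. Some genes of the lists are counted and not reported here by name. For partners the rule took Ocln, Tjp1 and the 3 largest tested changes. For other claudins it took those passing the filter, plus Cldn5. For likeness it took the 3 nearest genes. The motifs and the ratios to Epcam and Trp63 were added after values were seen. Alternatives were a smaller pseudocount (0.1), a stricter filter (TPM of 5) or none, rescaling to protein-coding or epithelial genes, median-ratio and quantile scaling, sample weights, and leaving out each sample.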

Additional observations from a re-analysis of the deposited data

How the results depend on the processing

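The number of members past the adjusted threshold was 0 in every alternative run except without Control replicate 4, where it was 7 (range 0 to 7 when 1 sample was left out). The number higher at an unadjusted p of at most 0.05, 8 as deposited, was 4 with no filter, 2 after rescaling to the protein-coding total, 3 with median-ratio factors, 4 with quantile normalization and 0 after rescaling to the epithelial markers. It was from 2 to 8 when 1 sample was left out. The number higher without overlap was 5, 5, 5 and 3 under those 4 scalings, in that order. It was 8 whichever sample was left out, but leaving out a sample cannot undo a gap between the groups, so this count could not fall. The median log2 fold change was 0.24 after rescaling to the epithelial markers and from 0.51 to 1.66 when 1 sample was left out. A setting added after seeing the data, without Control replicate 1 and rescaled to the protein-coding total, gave 0 members at that p, 5 without overlap and a median of 0.11. The causes of these shifts were not tested. With no filter the adjustment and trend cover all 52143 genes. The difference in the pore-forming share ran from -0.16 to 0.67 points when 1 sample was left out, and turned negative without Control replicate 4 (-0.12), SIGLEC12 replicate 2 (-0.16) or SIGLEC12 replicate 4 (-0.06). The log2 fold change of Cldn15 was -0.067 after rescaling to the epithelial markers, and no other member's fold change reversed. Of 123 values of single members under the alternatives, 115 kept direction and side, and the 7 that passed the threshold were all without Control replicate 4. Over its alternatives, the adjusted p of Cldn3 ran from 0.0414 to 0.685 and that of Cldn1 from 0.328 to 1. No paired analysis was possible because the labels used here pair no mice between the groups.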
